A study of Mus musculus with 24 samples.

Results

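The antioxidant target genes of the transcription factor NRF2 were followed after knockdown of the long noncoding RNA Ctcflos in differentiating brite adipocytes, cells of white fat that acquire thermogenic features of brown adipocytes. The 10 members were Nfe2l2, Keap1, Slc7a11, Gclc, Gclm, Txnrd1, Prdx1, Srxn1, Nqo1 and Hmox1, chosen by name among the 52089 symbols of the transcript table. Members and the gene lists below were chosen with earlier results of these data known. Their shares set against all symbols are therefore a description and not a test. Each symbol has several transcript entries in the table, 80 for the 10 members among 168326 in all. Each gene was represented by its RefSeq NM_ entry with the highest mean level. The cells were primary cultures from the stromal-vascular fraction of inguinal white fat of 129SvEv mice, with 2 days of induction and 1 day of differentiation in rosiglitazone, an activator of PPARγ. All of them, controls included, were then reverse transfected with a gapmer at 50 nM, which is a short antisense DNA flanked by locked nucleic acids that directs RNase H to the RNA it pairs with. Gapmers were directed at Ctcflos (KD) or at no transcript (NC), and RNA was harvested 24 h or 72 h after transfection. There were 6 libraries for either treatment at either time. The study describes gapmers against different isoforms of Ctcflos. It states that its global transcriptome work concentrated on the isoform numbered as the first, while its scheme of the 24 h and 72 h samples also names a gapmer against others. The labels do not say which of them a KD library received. The study calls its replicates biological, and the labels do not tie the libraries to separate cell preparations. The p-values measure the spread between these samples, part of which may be technical.

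NRF2, encoded by Nfe2l2, is held in the cytoplasm by KEAP1, which hands it to a ubiquitin ligase for degradation. Oxidants and electrophiles modify cysteines of KEAP1, NRF2 accumulates in the nucleus, pairs with a small MAF protein and binds the antioxidant response element. Its target genes supply glutathione, reduce thioredoxin and peroxides, and break down quinones and haem. Because the control acts on the protein, the Nfe2l2 transcript need not move when targets do. In fat cells this pathway meets the high oxidative load of active mitochondria.

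The core of the antioxidant response element is written TGACNNNGC, where N is any base. The core was searched on both strands of the RefSeq promoter windows (GRCm38.p6, 250 bases before to 50 bases after the gene start), which hold 8 of the 10 members, not Gclc and Hmox1. A match was found in the windows of 5 members, Nfe2l2, Gclm, Txnrd1, Prdx1 and Srxn1, and in 12.4% of all 32851 windows. The stretches around these matches are shown so that the letters can be set beside the expression values below. The core is in capitals, and every stretch is written 5′ to 3′ on the strand of the gene. In Nfe2l2 the core reads forward, and in the other stretches it lies on the opposite strand, so that its reverse complement is printed.
Nfe2l2, chr2:75704870-75704913, minus strand: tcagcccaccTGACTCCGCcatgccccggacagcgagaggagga
Gclm, chr3:122245398-122245456, plus strand: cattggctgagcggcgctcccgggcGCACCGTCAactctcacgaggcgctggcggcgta
Txnrd1, chr10:82859089-82859147, plus strand: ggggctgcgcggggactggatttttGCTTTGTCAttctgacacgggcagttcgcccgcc
Prdx1, chr4:116685441-116685499, plus strand: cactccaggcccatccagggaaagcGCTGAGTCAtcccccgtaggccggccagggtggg
Srxn1, chr2:152105527-152105573, plus strand: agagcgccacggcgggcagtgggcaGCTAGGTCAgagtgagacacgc
The matches of Gclm, Prdx1 and Txnrd1 end 125, 124 and 83 bases before the start, that of Nfe2l2 ends 231 bases before it, and that of Srxn1 lies past the start. Txnrd1 has 3 windows, of which 1 held the core. No match was found in the windows of Keap1, Slc7a11 and Nqo1, which says only that these letters are not there. A match describes the sequence and does not show that NRF2 binds it.

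Libraries held 1391832 to 5423840 mapped reads, with the lowest number in KD 24 h replicate 6. NC 72 h replicates 2 and 3 were closer to each other than sampling noise allows for separate libraries and entered as a single sample, which leaves n = 5 in that group. The RefSeq entry of the targeted RNA (1300015D01Rik) had 60 reads over NC 24 h and 12 over KD 24 h, and 79 over NC 72 h against 17 over KD 72 h. At 24 h its deposited levels, mapped reads per kilobase scaled to library size (RPKM), overlapped, at 0 to 0.62 in KD and 0.178 to 1.38 in NC. At 72 h they did not, at 0 to 0.517 in KD and 0.886 to 1.75 in NC. The entries of the isoform that the study numbers as the first were lower in read number and overlapped at both times. Of these AK041254 had 8 reads over KD 24 h against 12 over NC 24 h, with KD reaching 1.03 RPKM and NC 0.848, and 3 over KD 72 h against 32 over NC 72 h. The knockdown of that isoform at 24 h is thus not shown by these reads. The adipocyte markers Adipoq, Fabp4, Plin1, Lpl, Cidec and Pparg were above 0 in every sample. Their summed scaled RPKM was 37200 to 49900 in KD against 50400 to 52900 in NC at 24 h, and 26200 to 35800 against 36600 to 48200 at 72 h. Most of this sum was Fabp4, at a mean of 36700 RPKM. With an adjusted p under 0.05 as the call, 2 of 6 markers were lower at 24 h (Adipoq and Pparg, 33.3%, against 11.1% of all symbols). At 72 h 3 of 6 were lower (Adipoq, Fabp4 and Lpl, 50%, against 13.0%). None was called higher, against 10.7% of symbols at 24 h and 10.4% at 72 h. Loss of fat cells and less RNA per cell cannot be told apart in bulk samples. The samples fell into 2 clusters by their deviations from the group means over 6148 other genes, 15 samples in the larger one and 8 in the smaller one, with 2 samples of every group in the smaller one. The clusters were formed from the spread of these same samples, so fits within a cluster may understate that spread. Adjusted p-values and calls within a cluster are therefore given as a description.

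Txnrd1, Nqo1 and Gclm rose after knockdown at 24 h, and Txnrd1 and Nqo1 at 72 h. With an adjusted p under 0.05 as the call, 3 of 10 members were called higher at 24 h, against 10.7% of all tested symbols by the same choice of entry (10.6% of entries), and none was called lower, against 11.1% of symbols (11.2% of entries). At 72 h, 2 of 9 tested members were called higher, against 10.4% of symbols (10.4% of entries), and none lower, against 13.0% of symbols (12.1% of entries). Called in either direction were 30% of members against 21.9% of symbols at 24 h, and 22.2% against 23.4% at 72 h. The median log2 difference between KD and NC over the members was 0.49 at 24 h and 0.27 at 72 h, against -0.01 and 0.01 over all entries. All 10 differences at 24 h and all 9 at 72 h were above 0. The adjusted p of most of them missed 0.05, and 5 at 24 h and 7 at 72 h had intervals that included 0. Members were measured in the same samples, so their signs are not independent. Under some alternatives the sign turned for Keap1 and Prdx1 at 24 h, and for these 2, Gclc and Gclm at 72 h (closing section). Adjusted p-values are those of limma with Benjamini-Hochberg correction over all entries, and levels are RPKM scaled between the samples of a time point.

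**Figure D1:**
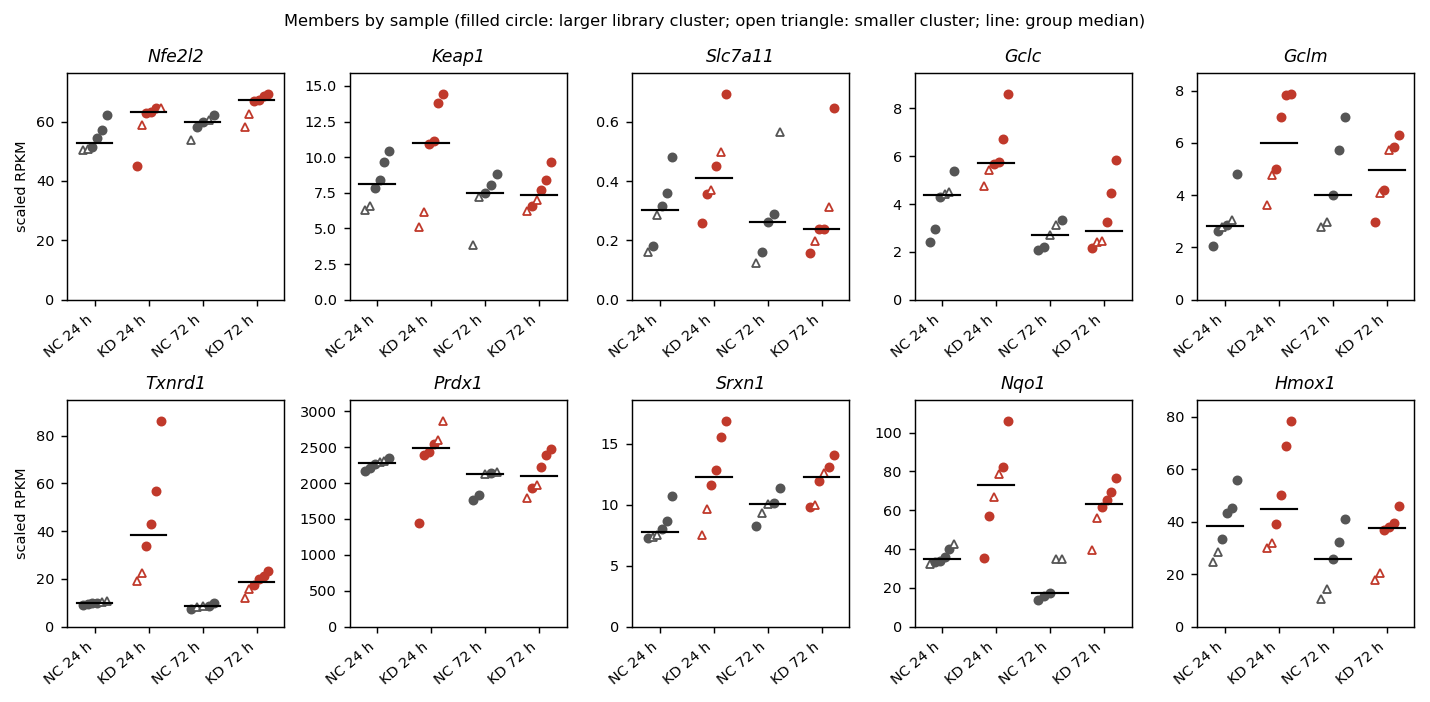
Scaled RPKM (y axis, from 0) of each member in every sample of the groups NC 24 h, KD 24 h, NC 72 h and KD 72 h (n = 6, 6, 5 and 6). Filled circles are samples of the larger library cluster, open triangles those of the smaller cluster, and lines are group medians. Txnrd1 in KD lies above every NC sample at both times, and Nqo1 does so at 72 h. Of all tested symbols, 4.9% do so at 24 h and 6.22% at 72 h.

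**Figure D2:**
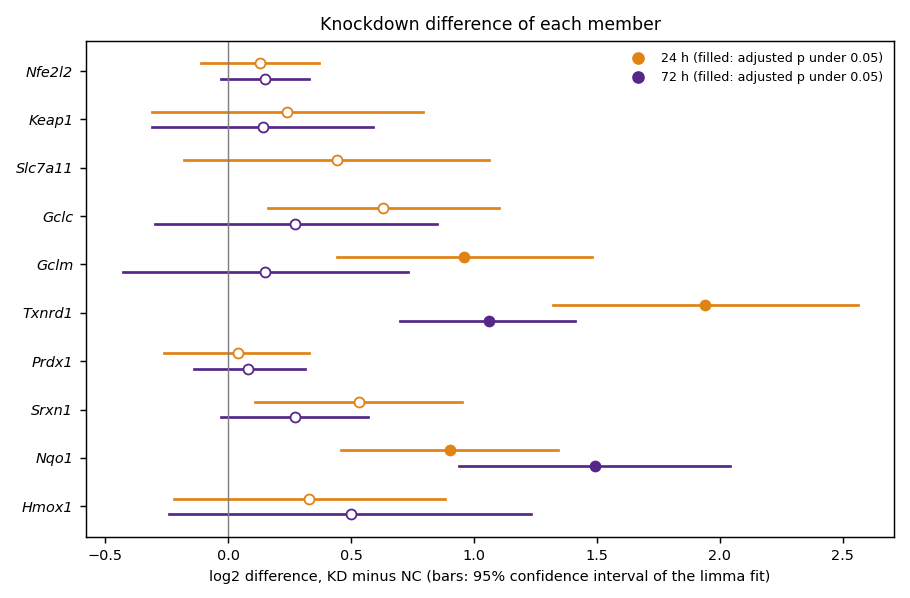
The log2 difference, KD minus NC, of each member at 24 h and 72 h (x axis) with the 95% confidence interval of the limma fit. Filled points have an adjusted p under 0.05, namely Gclm, Txnrd1 and Nqo1 at 24 h and Txnrd1 and Nqo1 at 72 h. Slc7a11 was too low to be tested at 72 h.

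The transcript of the factor itself was not called at either time. Nfe2l2 was at 45.2 to 64.7 scaled RPKM in KD 24 h, with a median of 63.1, and at 50.4 to 62.1 in NC 24 h, with a median of 52.9. The lowest KD value belonged to replicate 6, the library with the fewest reads, and the groups overlapped. The fitted log2 difference was 0.13 ± 0.11 (SE, adjusted p = 0.41), and without that library it was 0.21 (adjusted p = 0.087). At 72 h KD reached 58.0 to 69.3 with a median of 67.1, and the NC samples were at 53.6, 58.3, 60.0, 60.6 and 62.1. Their log2 difference was 0.15 ± 0.09 (SE, adjusted p = 0.23). The ranges overlapped again, although 5 KD samples lay above every NC sample.

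A pair of short entries of Nfe2l2 behaved unlike the RefSeq entry. AK029360 (1320 bases) and ENSMUST00000152371 (1447 bases) had mean levels of 2.30 and 2.00 RPKM, against 59.8 for NM_010902. Their log2 differences at 24 h were 1.27 (adjusted p = 0.023) and 1.21 (adjusted p = 0.027). At 72 h they were 1.00 (adjusted p = 0.081) and 1.07 (adjusted p = 0.089). Both entries are called higher at 24 h while the abundant transcript is not, and reads of overlapping entries are not independent.

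Keap1, the sensor that keeps NRF2 low, was at 5.09 to 14.4 scaled RPKM in KD 24 h (median 11.0) and 6.30 to 10.4 in NC 24 h (median 8.13). No KD sample lay within the NC range, since the 2 of the smaller cluster were below it and the other 4 above it. For Keap1 the log2 difference was 0.24 ± 0.26 (SE, adjusted p = 0.52). It was 0.45 within the larger library cluster and -0.21 within the smaller one, neither of them called. At 72 h Keap1 differed by 0.14 ± 0.21 (SE, adjusted p = 0.68).

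Among the glutathione genes, Gclm was called higher at 24 h and Gclc lay just short of the threshold. Slc7a11, the cystine carrier of the xc- exchanger that feeds glutathione synthesis, had few reads in these libraries. It had 10 to 23 reads per library in KD 24 h and 5 to 24 in NC 24 h, or 0.258 to 0.695 and 0.162 to 0.481 scaled RPKM. Its log2 difference was 0.44 ± 0.29 (SE, adjusted p = 0.28), with a 95% interval from -0.18 to 1.06. At 72 h it had 4 to 25 reads per library and failed the filter on low read numbers. The mean deposited RPKM, a scale on which the median of all entries was 0.25 higher in KD on the log2 scale, was 0.325 in KD and 0.257 in NC (n = 6 and 5, two-sided exact permutation test, p = 0.57, smallest possible p = 0.0043). On the scaled values used elsewhere these means were 0.299 and 0.28. The interval at 24 h does not include a difference as large as that of Txnrd1, and smaller changes in either direction lie within it.

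Gclc, the catalytic subunit of glutamate-cysteine ligase, which makes the first and limiting step of glutathione synthesis, was at 4.74 to 8.61 scaled RPKM in KD 24 h (median 5.72) and 2.42 to 5.37 in NC 24 h (median 4.36). The highest value came from KD replicate 6, and the ranges overlapped only between 4.74 and 5.37. The log2 difference was 0.63 ± 0.22 (SE, adjusted p = 0.052). It was called in 5 of 23 alternatives, among them RefSeq entries alone (adjusted p = 0.037) and limma voom on the recovered reads (0.61, adjusted p = 0.032), and refits without 1 library ranged from 0.49 to 0.72. Of the 3 tested entries of Gclc at 24 h, 1 was called higher, and it was not the RefSeq entry. Its mean was 3.65 RPKM and its log2 difference 0.68 (adjusted p = 0.033). At 72 h KD was at 2.15 to 5.83 (median 2.86) and NC at 2.07, 2.20, 2.70, 3.12 and 3.33, and the log2 difference of 0.27 ± 0.27 was not called (adjusted p = 0.50).

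Gclm, the modifier subunit of the same ligase, rose 1.94-fold at 24 h in its RefSeq entry. That entry had 18 to 50 reads per library in KD 24 h and 9 to 29 in NC 24 h. KD 24 h samples were at 3.62 to 7.88 scaled RPKM with a median of 6.01, and NC 24 h samples at 2.05 to 4.80 with a median of 2.82. Its log2 difference was 0.96 ± 0.24 (SE, adjusted p = 0.013). NC replicate 4, at 4.80, lay among the KD samples, and the other NC samples reached at most 3.05, below every KD sample. The fit without each library in turn gave 0.85 to 1.09 and was called every time. Within the smaller library cluster the difference was 0.50 and not called (adjusted p = 0.41), and within the larger one it was 1.17 (adjusted p = 0.015). Of the 5 tested entries of Gclm, 4 were called higher, of which AK028236 repeats the values of the RefSeq entry (mean 4.62 RPKM). The more abundant AK172387 (17.4 RPKM) and ENSMUST00000029769 (7.17) differed less, by 0.79 (adjusted p = 0.032) and 0.73 (adjusted p = 0.036). ENSMUST00000178826 (3.31) differed by 1.02 and was not called (adjusted p = 0.051).

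At 72 h Gclm showed no call. KD samples were at 2.98 to 6.31 (median 4.95), and NC samples at 2.80, 2.99, 4.01, 5.71 and 7.0. The NC group now spanned the KD group, with the 2 NC samples of the smaller cluster at its low end. The fitted log2 difference was 0.15 ± 0.27 (SE, adjusted p = 0.73), and it was -0.23 in the larger cluster and 0.74 in the smaller one. The difference between the knockdown effects at 72 h and 24 h was -0.80 ± 0.37, which the interaction term did not call (adjusted p = 0.40).

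In the thioredoxin branch, Txnrd1 had the largest change of the members at 24 h, whereas Prdx1 was not called at either time. Txnrd1, the cytosolic thioredoxin reductase, a selenoenzyme that restores thioredoxin with NADPH, was at 8.89 to 10.6 scaled RPKM in NC 24 h (median 9.94). In KD 24 h the samples were at 19.1, 22.6, 33.8, 42.9, 56.8 and 86.2. Every KD sample exceeded every NC sample, as in 4.6% of entries and 4.9% of symbols at this time. The KD samples differed among themselves far more than the NC samples did (SD 25 against 0.592), and the 2 lowest were those of the smaller cluster. The log2 difference was 1.94 ± 0.29 (SE, adjusted p = 0.00072), a 3.83-fold rise. Without KD replicate 6, the highest, it was 1.70 (adjusted p = 0.00024).

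Txnrd1 was still raised at 72 h. KD samples were at 12.2 to 23.3 scaled RPKM (median 18.8), and NC samples at 7.48, 8.24, 8.53, 8.73 and 9.93. The groups did not overlap, as in 6.14% of entries and 6.22% of symbols at this time. The fitted log2 difference was 1.06 ± 0.17 (SE, adjusted p = 0.00054), a 2.08-fold rise. All 8 tested entries of Txnrd1 were called higher at both times, with differences of 1.92 to 2.39 at 24 h and 1.02 to 1.65 at 72 h. Overlapping entries share reads, so these calls are not independent of each other. Within the larger cluster the difference was 2.40 at 24 h and 1.23 at 72 h, both called. Within the smaller cluster it was 0.98 at 24 h (adjusted p = 0.032) and 0.72 at 72 h (adjusted p = 0.082). The effect at 72 h minus that at 24 h was -0.87 ± 0.36, which was not called (adjusted p = 0.33).

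Prdx1, an abundant peroxiredoxin that reduces hydrogen peroxide, had the highest level of the members, with medians of 2490 scaled RPKM in KD 24 h and 2280 in NC 24 h. KD replicate 6 stood apart at 1440, against 2390 for the next KD sample, and the NC samples lay within 2170 to 2350. Its log2 difference was 0.04 ± 0.14 (SE, adjusted p = 0.87), and without that library 0.18 (adjusted p = 0.057). The 95% interval at 24 h ran from -0.26 to 0.33 and at 72 h, where the difference was 0.08 ± 0.11 (adjusted p = 0.61), from -0.14 to 0.31. A change of Prdx1 of the size seen for Txnrd1 is outside these intervals.

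Srxn1, sulfiredoxin, which repairs overoxidised peroxiredoxins, was at 7.49 to 16.9 scaled RPKM in KD 24 h (median 12.2) and 7.24 to 10.7 in NC 24 h (median 7.76). Here 4 KD samples lay above all NC samples, and the 2 KD samples of the smaller cluster, at 7.49 and 9.61, lay within the NC range. The log2 difference was 0.53 ± 0.20 (SE, adjusted p = 0.065). It was called within the larger cluster (0.70, adjusted p = 0.025) and not within the smaller one (0.18, adjusted p = 0.71). At 72 h the difference was 0.27 ± 0.14 (SE, adjusted p = 0.18), from 9.79 to 14.1 in KD and 8.29 to 11.4 in NC.

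Nqo1, which reduces quinones with NADPH and is widely used as a readout of NRF2, was raised at both times. KD 24 h samples were at 35.5, 57.1, 67.0, 78.9, 82.1 and 106 scaled RPKM, and NC 24 h samples at 32.0 to 42.6 with a median of 34.6. Only KD replicate 6, the lowest, fell within the NC range, and in that library Txnrd1 was at its highest. The log2 difference of Nqo1 was 0.90 ± 0.21 (SE, adjusted p = 0.0076), a 1.87-fold rise, and without that library 1.09 (adjusted p = 0.00021). It was 0.86 in the larger cluster and 0.97 in the smaller one, both called.

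At 72 h Nqo1 had the largest change of the members, and its size depended on the library cluster. KD samples were at 39.6 to 76.7 scaled RPKM (median 63.4). NC samples were at 13.6, 15.6 and 17.2 in the larger cluster and at 34.7 and 35.0 in the smaller one. All KD samples lay above all NC samples, as in 6.14% of entries and 6.22% of symbols at this time. The log2 difference over all samples was 1.49 ± 0.26 (SE, adjusted p = 0.001), a 2.81-fold rise. Within the larger cluster it was 2.13 (adjusted p = 1.07e-06) and within the smaller one 0.45 (adjusted p = 0.17, 2 samples against 2). What separates the clusters is not given by the labels, and its part in the result was not tested. The knockdown effects on Nqo1 at the 2 times differed by 0.60 ± 0.35, which was not called (adjusted p = 0.52).

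**Figure D3:**
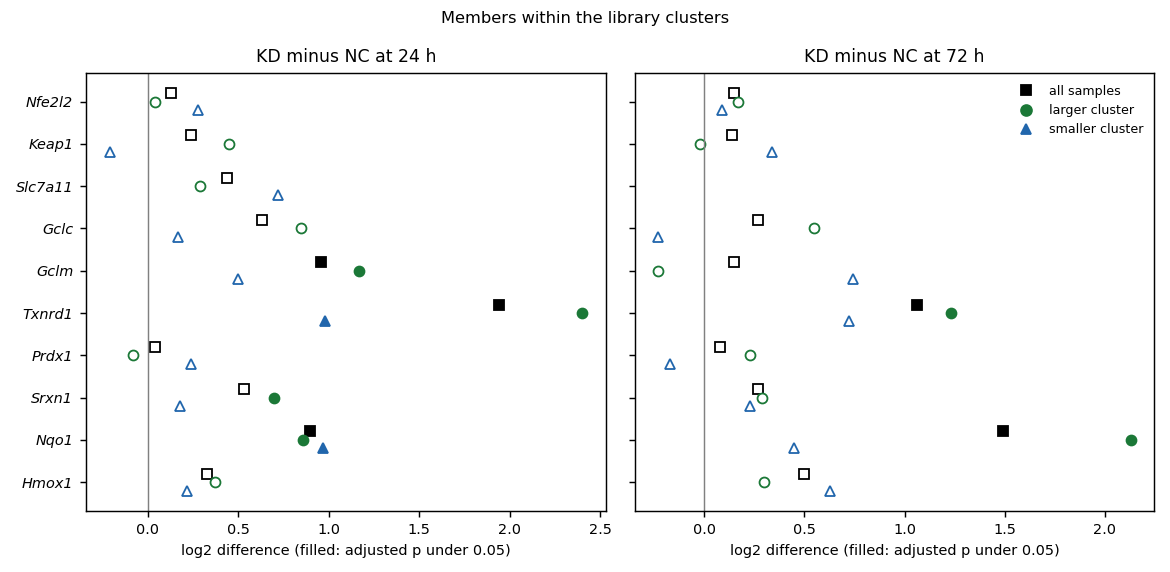
The log2 difference, KD minus NC (x axis), of each member at 24 h and 72 h, over all samples (squares), the larger library cluster (circles) and the smaller one (triangles). Filled symbols have an adjusted p under 0.05. Nqo1 at 72 h was at 2.13 in the larger cluster and 0.45 in the smaller one, and Txnrd1 at 24 h at 2.40 and 0.98.

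Hmox1, haem oxygenase 1, which splits haem into biliverdin, carbon monoxide and iron, varied widely within every group. It was at 30 to 78.4 scaled RPKM in KD 24 h (median 44.6) and 24.6 to 55.6 in NC 24 h (median 38.3). At 72 h KD was at 17.7 to 46.0 (median 37.5) and NC at 10.7, 14.3, 25.8, 32.4 and 41.0. In every group the 2 samples of the smaller cluster were the lowest. The fitted log2 difference was 0.33 ± 0.26 at 24 h (SE, adjusted p = 0.37) and 0.50 ± 0.34 at 72 h (SE, adjusted p = 0.32), and it was not called within either cluster. Macrophages are a known source of haem oxygenase. The summed level of 10 macrophage markers was 2.85 to 31.7 scaled RPKM in KD 24 h, 7.21 to 41.1 in NC 24 h, 7.66 to 14.1 in KD 72 h and 10 to 43.4 in NC 72 h. Ptprc and Mrc1 were at 0 in 16 of 23 samples, and 3 of the 10 markers were abundant enough for a test. Of these, Csf1r was higher in KD at both times (1.22, adjusted p = 0.0066, and 1.23, adjusted p = 0.0031) and Lyz2 lower at 72 h (-3.68, adjusted p = 0.00065). A single call among 3 markers is 33.3%, against 10.7% and 10.4% of symbols called higher at the 2 times and 13.0% called lower at 72 h. The part of macrophages in the spread of Hmox1 was not tested.

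Over time in the controls, 2 of 9 tested members were called lower at 72 h than at 24 h, against 4.54% of entries and 4.23% of symbols. None was called higher. Called in either direction were 22.2% of members against 9.28% of symbols. Nqo1 fell by 0.83 ± 0.23 on the log2 scale (SE, adjusted p = 0.037). Within the larger cluster the log2 difference was -1.29, and within the smaller one -0.18 (adjusted p = 0.66). The call of Nqo1 was lost in 10 of 22 alternatives, among them the fit with no filter and those without any of NC 24 h replicates 1 to 5 or NC 72 h replicates 1, 2 or 6 (adjusted p = 0.056 to 0.091). Prdx1 fell by 0.27 ± 0.07 (SE, adjusted p = 0.021), a call lost in 3 of 22 alternatives, namely no filter (adjusted p = 0.079), the replicate block (adjusted p = 0.095) and the smaller cluster (adjusted p = 0.19). By limma, 0 of the 10 members was called in the interaction of knockdown and time, which called 0.2% of entries. The smallest unadjusted limma p-values of the members were 0.023 for Txnrd1 and 0.042 for Gclm. The share of all entries with values as small was not computed, so these are a description. A call at 1 time and not at the other, as for Gclm, therefore does not show that the effects differ.

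Small MAF genes and Sqstm1 rose at 24 h. Of 12 further genes listed as its partners and regulators, 10 were tested at 24 h, 4 were called higher (40%, against 10.7% of symbols) and none lower (against 11.1%). At 72 h 2 of 10 were called higher (20%, against 10.4%) and none lower (against 13.0%). The 4 at 24 h were the small MAF genes Maff, Mafg and Mafk, whose proteins pair with NRF2, and Sqstm1, which encodes the autophagy receptor p62 that binds KEAP1. Sqstm1 was at 125 ± 44.6 scaled RPKM in KD 24 h and 58.4 ± 5.23 in NC 24 h (mean ± SD, n = 6 each, log2 difference 1.01 ± 0.20 SE, adjusted p = 0.004). At 72 h it was at 107 ± 7.30 and 64.4 ± 7.91 (n = 6 and 5, log2 difference 0.74 ± 0.10 SE, adjusted p = 0.00017). Mafk rose by 1.29 at 24 h (adjusted p = 0.011) and 1.4 at 72 h (adjusted p = 0.0062), from NC means of 1.03 and 0.747 scaled RPKM, and Maff by 0.82 at 24 h (adjusted p = 0.030). Mafg rose by 0.81 at 24 h (adjusted p = 0.031).

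The wider pathway did not share a direction. Of 101 other genes of glutathione, thioredoxin, NADPH, haem, detoxification and superoxide metabolism and their regulators, 91 were tested. At 24 h 16 were called higher (17.6%, against 10.7% of symbols) and 14 lower (15.4%, against 11.1%). At 72 h 16 were called higher (17.6%, against 10.4%) and 20 lower (22.0%, against 13.0%). Their median log2 difference was -0.05 at 24 h and -0.02 at 72 h, where that of all entries was -0.01 and 0.01.

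Glutathione genes split. Of 22 tested, 5 were called higher (22.7%, against 10.7% of symbols) and 4 lower (18.2%, against 11.1%) at 24 h, and 5 higher (22.7%, against 10.4%) and 6 lower (27.3%, against 13.0%) at 72 h. The called genes that were higher included Slc3a2, the heavy chain that Slc7a11 pairs with, at 0.95 ± 0.17 (SE) at 24 h (adjusted p = 0.0021) and 0.44 at 72 h (adjusted p = 0.0069). Gss, which completes glutathione, rose by 0.67 at 24 h (adjusted p = 0.0062) and 1.27 at 72 h (adjusted p = 0.00095). Gsto1, a glutathione transferase of the omega class, rose by 0.80 (adjusted p = 0.0038) and 1.45 (adjusted p = 1.8e-05), and Gpx1, the cytosolic glutathione peroxidase, was called at 72 h with 0.83 (adjusted p = 0.00035). Among the called genes that were lower were Gpx3, the secreted peroxidase, at -0.78 (adjusted p = 0.005) and -1.65 (adjusted p = 0.00082), and Ggt5 at -0.88 (adjusted p = 0.018) and -1.28 (adjusted p = 0.00051). Gstt1 was lower at 24 h, with -0.99 (adjusted p = 0.0091), and Gstm2 at 72 h, with -0.50 (adjusted p = 0.0021).

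In the thioredoxin list, 3 of 14 tested genes were called higher (21.4%, against 10.7% of symbols) and 1 lower (7.14%, against 11.1%) at 24 h. At 72 h 1 was called higher (7.14%, against 10.4%) and 3 lower (21.4%, against 13.0%), and shares of so few genes move by 1 gene at a time. Txn1, the cytosolic thioredoxin that Txnrd1 reduces, was at 366 ± 59.8 scaled RPKM in KD 24 h and 255 ± 20.1 in NC 24 h (mean ± SD, n = 6 each), a log2 difference of 0.51 (adjusted p = 0.0069), and it was higher at 72 h by 0.36 (adjusted p = 0.022). Txnrd2, the mitochondrial reductase, went the other way, with -1.30 at 24 h (adjusted p = 0.016) and -1.12 at 72 h (adjusted p = 0.0048), from low levels of 4.36 and 4.83 in NC. Sesn2 (1.19, adjusted p = 0.018) and Glrx2 (0.41, adjusted p = 0.033) were higher at 24 h. At 72 h the mitochondrial peroxiredoxin Prdx3 (-0.47, adjusted p = 0.003) and Txnip (-0.54, adjusted p = 0.0099), which binds thioredoxin and blocks it, were lower.

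No gene of NADPH supply was called higher at either time. Of 9 tested, 5 were called lower at 24 h (55.6%, against 11.1% of symbols) and 4 at 72 h (44.4%, against 13.0%), with medians of -0.41 and -0.30. G6pdx, the entry enzyme of the pentose phosphate pathway, was at 99.8 ± 19.7 scaled RPKM in KD 24 h and 139 ± 14.6 in NC 24 h (mean ± SD, n = 6 each), a log2 difference of -0.50 (adjusted p = 0.022). At 72 h it was at 73.6 ± 7.35 and 141 ± 18.9 (n = 6 and 5), a difference of -0.93 (adjusted p = 5.6e-05). Idh1 was lower by -0.70 (adjusted p = 0.022) and -0.84 (adjusted p = 0.00014), Tkt at 24 h by -0.56 (adjusted p = 0.031) and Me1 at 72 h by -0.97 (adjusted p = 0.00034). These enzymes also feed fatty acid synthesis, and the summed adipocyte markers, mostly Fabp4, were lower in the same samples. The part of that decrease in these values was not tested.

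Of 9 tested genes of haem and iron, 1 was called lower (11.1%, as among all symbols) and none higher (against 10.7%) at 24 h. At 72 h 2 were called higher (22.2%, against 10.4%) and 1 lower (11.1%, against 13.0%). Blvra, a biliverdin reductase downstream of haem oxygenase, was lower at 24 h (-0.87, adjusted p = 0.017) and 72 h (-0.74, adjusted p = 0.0024). Ftl1, the ferritin light chain (0.32, adjusted p = 0.027), and Slc40a1, the iron exporter ferroportin (1.36, adjusted p = 0.041), were higher at 72 h. Of 4 tested genes of superoxide dismutases and catalase, 1 was called lower at 24 h (25%, against 11.1% of symbols) and 3 at 72 h (75%, against 13.0%). None was called higher (against 10.7% and 10.4%), and the called genes were superoxide dismutases. They were Sod2 at 24 h (-0.43, adjusted p = 0.016) and Sod3 (-0.54, adjusted p = 0.0033), Sod2 (-0.88, adjusted p = 0.0083) and Sod1 (-0.85, adjusted p = 0.033) at 72 h.

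The detoxification list held the largest changes. Of 23 tested genes, 4 were called higher (17.4%, against 10.7% of symbols) and 2 lower (8.7%, against 11.1%) at 24 h, and 6 higher (26.1%, against 10.4%) and 3 lower (13.0%, as among all symbols) at 72 h. Osgin1, an oxidative stress induced growth inhibitor, was at 6.17 ± 2.00 scaled RPKM in KD 24 h and 1.74 ± 1.06 in NC 24 h (mean ± SD, n = 6 each, log2 difference 1.99 ± 0.43 SE, adjusted p = 0.0057), and at 72 h the difference was 2.69 (adjusted p = 0.00048). The aldo-keto reductases Akr1b3 and Akr1b8, which reduce aldehydes, rose by 0.99 (adjusted p = 0.012) and 0.74 (adjusted p = 0.001) at 24 h. At 72 h they rose by 3.11 (adjusted p = 4.7e-07) and 2.02 (adjusted p = 7.5e-06). Akr1b3 and Akr1b8 were the only listed pathway genes called in the interaction, with 2.13 ± 0.32 (SE, adjusted p = 0.0082) and 1.29 ± 0.22 (SE, adjusted p = 0.011). Reads of near-identical aldo-keto reductase genes may be shared between entries. Lower were Aldh7a1 at both times (-0.91, adjusted p = 0.0038, and -0.63, adjusted p = 0.018), Fmo1 at 24 h (-0.70, adjusted p = 0.012), and Ces1d (-0.52, adjusted p = 0.022) and Ptgr2 (-0.45, adjusted p = 0.043) at 72 h.

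**Figure D4:**
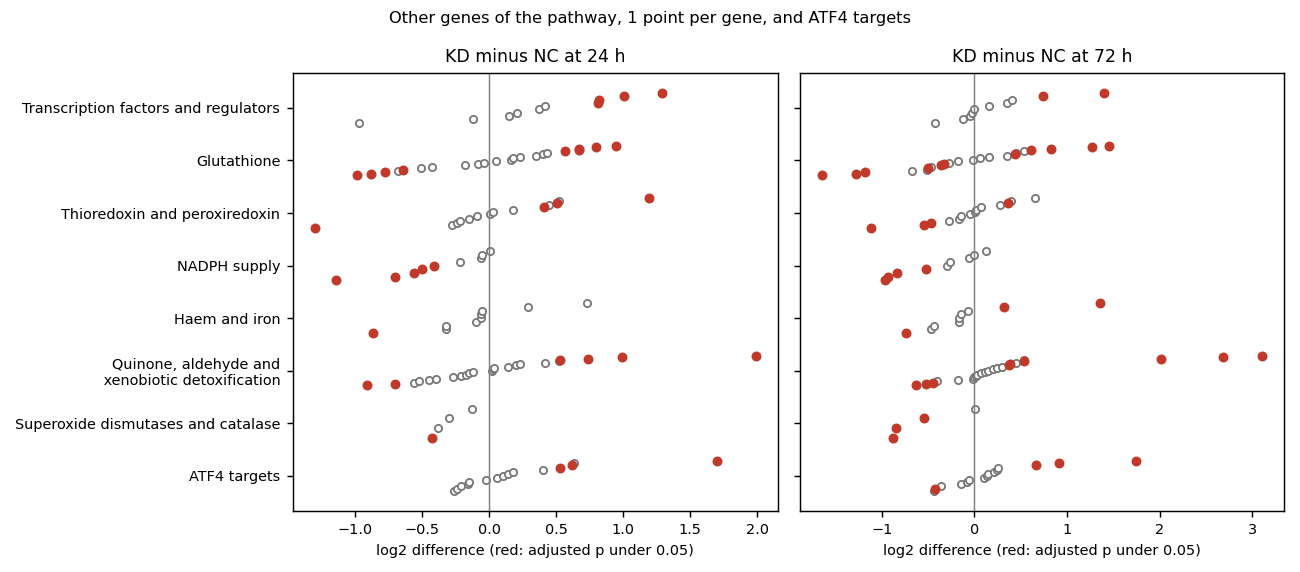
The log2 difference, KD minus NC (x axis), of every tested gene of 7 lists of other NRF2 pathway genes and of the ATF4 targets at 24 h and 72 h, 1 point per gene. Red points have an adjusted p under 0.05. Called genes of NADPH supply all lie below 0, and Akr1b3 at 72 h lies farthest right, at 3.11.

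Slc7a11 is also a target of ATF4, the factor of the integrated stress response. Of 15 tested genes of an ATF4 list, 3 were called higher (20%, against 10.7% of symbols) and none lower (against 11.1%) at 24 h. At 72 h 3 were called higher (20%, against 10.4%) and 1 lower (6.67%, against 13.0%). Atf3 rose by 1.70 ± 0.29 (SE) at 24 h (adjusted p = 0.0015) and 0.91 at 72 h (adjusted p = 0.040), Atf4 itself by 0.53 at 24 h (adjusted p = 0.0038), Nupr1 by 0.62 (adjusted p = 0.046) and 1.74 (adjusted p = 0.00012), and Ddit3 by 0.66 at 72 h (adjusted p = 0.00019). Cebpb was lower at 72 h (-0.43, adjusted p = 0.043).

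The genes most like each member over the 23 samples were sought among 12698 symbols by Pearson's r of log2 scaled RPKM, given as a description of samples that share groups and clusters. Txnrd1 was closest to Ier5 and Ptbp3 (r = 0.95 each), and Nqo1 to Cirh1a (0.94) and S100a10 (0.90). Keap1 was closest to Nod1 (0.93) and Fam46a (0.87), Hmox1 to Nme2 (0.88) and Xdh (0.87), and Srxn1 to Slc30a4 (0.87) and Ctnnb1 (0.84). The closest genes of Prdx1 were Ddx24 and Lbr (0.86 each), those of Gclc Frmd4a (0.83) and Ythdf1 (0.82), and those of Gclm Yars2 (0.79) and Cttnbp2nl (0.78). For Nfe2l2 they were AK132422 (0.83) and Tmem173 (0.81), and for Slc7a11 ENSMUST00000166096 (0.69) and Dnase2a (0.68). No member was among the 2 nearest genes of another member.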

How the data were processed

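Libraries were made by bulk RNA barcoding with oligo-dT primers and 3′ end sequencing, and the authors aligned reads to NCBI reference sequences and used the Genomatix suite. Version, genome build, filters and strand handling are not given in the sources used here. The deposited values are RPKM for 168326 GenBank, Ensembl and RefSeq entries, written with decimal commas. Because 3′ reads do not scale with length, RPKM order genes only roughly. No column was unused (0 columns). Read numbers were recovered from the RPKM steps. Library totals ranged from 1391832 to 5423840 (median 3945867), and depth statements cover counting error only. Among low values of NC 72 h replicate 6, 18.5% lay midway between whole reads, and the library was kept.

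Of 276 library pairs, NC 72 h replicates 2 and 3 differed by 0.343 of counting noise and the next pair by 1.89, so their mean was used. An entry was tested if it reached the RPKM that 10 reads give in the library of median depth in a number of samples equal to the smaller group or above it, with 15 reads or more summed. Samples of a comparison were brought to one scale by trimmed means of their log ratios (30% of ratios and 5% of levels trimmed). limma 3.58.1 (R 4.3.3) with an intensity trend was fitted to log2(scaled RPKM + 0.1), which understates changes of low genes. Adjusted p-values are two-sided, with Benjamini-Hochberg correction over all entries, and under 0.05 made a call. The script was tested on simulated data.

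Members and lists were chosen with earlier results of these data known. Named were all members, and from each list up to 3 called genes per direction and time with the smallest adjusted p. Mafg and the macrophage markers were named after their values were seen. Adgre1 was found under its older symbol. Promoter windows came from RefSeq (GRCm38.p6). Alternatives are given in the closing section.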

Additional observations from a re-analysis of the deposited data

Results flagged for a closer look

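In 40 groups of member values, 4 held a sample whose gap to its nearest neighbour, as a share of the range, passed Dixon's 95% critical value, and chance alone gives about 1 group in 20. In KD 24 h, replicate 6 was lowest for Nfe2l2 (45.2 against 58.9 scaled RPKM, share 0.704) and for Prdx1 (1440 against 2390, share 0.667). This library had 1391832 reads, the fewest of the series. In KD 72 h, replicate 1 was highest for Slc7a11 (0.646 against 0.314, share 0.68), on 25 reads. In NC 24 h, replicate 4 was highest for Gclm (4.80 against 3.05, share 0.638), on 29 reads.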

How the results depend on the processing

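The calls of Txnrd1 and Nqo1 at 24 h held under every alternative run (log2 differences 0.98 to 2.40 and 0.78 to 1.09), and at 72 h under all but the smaller library cluster (0.72 and 0.45). Gclm at 24 h lost its call only there (0.50). Members called at 24 h were 5 on RefSeq entries alone (Gclc and Srxn1 added), and 3 to 5 without 1 library, with 5 without KD 24 h replicate 4. At 72 h there were 5 on the deposited scale (Nfe2l2 0.40, Prdx1 0.33 and Srxn1 0.52 added), 0 in the smaller cluster and 2 without any 1 library. That scale shifts the median of all entries by 0.25 at 72 h and makes 13145 of 16247 called entries higher, against 5623 of 12166. Called entries at 24 h, 11752, were 2607 with 1 entry per symbol, 3674 on RefSeq entries and 1333 in the smaller cluster, and 8902 to 14155 without 1 library. At 72 h these were 2803, 3560 and 5843, and 9752 to 12060 without 1 library. Of the other pathway genes, 19 were called at 24 h with no filter and 6 in the smaller cluster, and 15 at 72 h in the smaller cluster. Without 1 library there were 23 to 36 at 24 h and 31 to 37 at 72 h.

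Members called over time in NC, 2, were 0 with no filter and 1 in the smaller cluster (Hmox1, -1.18, adjusted p = 0.019), and 1 to 2 without 1 library. Nqo1 lost this call without NC 24 h replicates 1 to 5 or NC 72 h replicates 1, 2 or 6 (adjusted p = 0.056 to 0.091). Interaction calls among members stayed at 0 in all alternatives, and entries called there ranged from 28 to 1719 (119 as reported).

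Replicate numbers did not pair samples, since the deviations of same-numbered KD and NC samples correlated at -0.24 to 0.19 at 24 h and -0.15 to 0.20 at 72 h. With the replicate number as a block, 1 member was called over time in NC (Prdx1 lost its call, adjusted p = 0.095), and no other call of a member changed. KD 72 h replicate 3 had no partner in that fit.

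Reversed signs concerned members that were not called. Prdx1 was -0.08 in the larger cluster and -0.02 without KD 24 h replicate 3 at 24 h (-0.02 to 0.18 without any 1 library), and -0.17 in the smaller cluster at 72 h. Keap1 was -0.21 in the smaller cluster at 24 h, and at 72 h -0.02 in the larger cluster and -0.07 without NC 72 h replicate 4 (-0.07 to 0.23 without any 1 library). At 72 h, Gclc was -0.23 in the smaller cluster, and Gclm -0.23 in the larger cluster and -0.05 for its Ensembl entry. The cause was not tested. Fewer samples in a cluster, 2 against 2 in the smaller one, leave wider errors.

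Slc7a11 had the fewest reads of the members, 4 to 25 per library.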
